A study of Mus musculus with 9 samples.

Results

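Heat shock proteins and J-domain proteins are the molecular chaperones that fold new and damaged proteins, and their mRNAs were examined here among the ribosome-bound mRNAs of mouse astrocytes. The members were protein-coding genes, chosen by symbol. The symbol begins with Hspa, Hspb, Hspd, Hspe, Hsph or Hsp90, or with Dnaja, Dnajb or Dnajc, followed by a number. The rule used no measured value, but it was set with earlier results of these data known. They were 72 of 22092 genes, with 27 heat shock proteins and 45 J-domain proteins.

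In translating ribosome affinity purification (TRAP), a ribosomal protein fused to green fluorescent protein is pulled down together with the mRNAs attached to it. All mice were 2 months old, of the strain Aldh1L1 JD130 and the genotype tg:Aldh1L1-L10aGFP, in which the Aldh1l1 promoter of a bacterial artificial chromosome drives the tagged protein in astrocytes. Whole astrocyte TRAP had 3 libraries of 1 brain each, with the choroid plexus removed, and endfeet TRAP had 6 libraries, each from purified brain vessels of pooled mice, to which the perivascular endfeet of astrocytes stay attached. There was no group without the transgene and no treated group, so each comparison set endfeet TRAP against whole astrocyte TRAP. By the study's methods, the buffers of the vessel isolation held cycloheximide, an inhibitor of protein synthesis. Its use for whole brains is not stated there. Vessels were isolated first and homogenized with more strokes than whole brains. The groups thus differed in handling too, and the part of handling in the values was not tested.

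HSP70 proteins bind unfolded stretches of other proteins in a cycle driven by ATP. J-domain proteins, also called HSP40, bring them their clients and speed up the hydrolysis of ATP, and nucleotide exchange factors such as the HSP110 proteins reset the cycle. HSP90 acts on clients that are nearly folded, and small heat shock proteins hold unfolded ones without ATP. The cytosol, the mitochondria and the endoplasmic reticulum, where secreted and membrane proteins are folded, each have a set of their own. Heat shock factors drive the cytosolic genes through heat shock elements, and the unfolded protein response drives those of the endoplasmic reticulum through other promoter elements.

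The libraries differed in depth. Counts summed over genes ran from 35984144 to 43521208 in whole astrocyte TRAP and from 2319495, in endfeet library 6, to 13450588 in endfeet TRAP. A count of 3, taken as the smallest that can be shown, stood for 0.0689 to 0.0834 CPM, the count relative to the library's total, and for 0.223 to 1.29 CPM. The spread between libraries, as edgeR's common dispersion, was 0.0135 among whole astrocyte and 0.341 among endfeet libraries. Levels below are normalized CPM (after TMM scaling), a log2 fold change is that of endfeet TRAP over whole astrocyte TRAP in edgeR's quasi-likelihood test, and its p-value was adjusted by Benjamini-Hochberg over 14427 genes with a threshold of 0.05. Libraries were the replicates, so a p-value sets a difference against the spread between libraries. The test took the same dispersion for both groups of a gene, although the groups differed in it.

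Markers of other cells stood apart between the groups. The 12 endothelial markers, Cldn5 and Pecam1 among them, were all higher in endfeet TRAP and summed to between 7.43 and 9.15 CPM in whole astrocyte TRAP and between 3360 and 5189 CPM in endfeet TRAP. Mural cell markers were higher in 12 of 12 and fibroblast markers in 8 of 8, with summed levels of 58.4 to 62.8 against 4705 to 9016 CPM and of 32.8 to 47.9 against 787 to 1684 CPM. Of 10 microglia and macrophage markers 7 were higher, and of the 8 tested markers of antibody-secreting cells, cells rich in endoplasmic reticulum, 6 were higher and none lower. Ependymal markers were higher in 9 and lower in 1 of 10, astrocyte markers higher in 1 and lower in 5 of 10, neuron markers lower in 3 of 10, oligodendrocyte markers higher in 1 and lower in 3 of 10, and immediate early genes higher in 2 and lower in 2 of 12. The part of these cells in the chaperone values was not tested. In bulk libraries, fewer cells of a type and less RNA per cell cannot be told apart.

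Of the 72 members 65 passed the filter on low counts, and endfeet TRAP held more of 12 of them and less of 11, while 42 were not past the threshold. Among all genes tested 34.6% were called, 20.7% as higher and 13.9% as lower, and the members' own shares, 18.5% higher and 16.9% lower, were near that background. The count of calls is thus no result about the family as a whole. The median log2 fold change was -0.25 over the members and 0.10 over all genes tested. All endfeet libraries lay above all whole astrocyte libraries for 11 members (18.9% of all genes) and below them for 18 members (23.8% of all genes). Of the 7 members under the filter, Dnajb8 and Dnajc5g had 0 counts in all libraries, while Dnajb7, Dnajc22, Dnajc5b, Hspb3 and Hspb9 reached at most 5.30 normalized CPM in any library.

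The counts of calls are given by the compartment in which the protein works. Of the 13 members of the endoplasmic reticulum 8 were higher and none lower, with a median log2 fold change of 2.10 (lower in 0 by DESeq2, by limma voom and at an unadjusted p under 0.05 in edgeR). Among the 8 mitochondrial members none was higher and 1 was lower, with a median of -1.15, with 0 higher at an unadjusted p under 0.05, by DESeq2 and by limma voom, and among the 52 tested members outside the endoplasmic reticulum 4 were higher and 11 lower, with a median of -0.52. The compartments were assigned with earlier results of these data known, and their difference is given as counts and medians without a test. As a share of all gene counts, endoplasmic reticulum members held 0.0829 to 0.0937% in whole astrocyte TRAP and 0.244 to 0.392% in endfeet TRAP, with no overlap. All other members held 0.443 to 0.474% and 0.295 to 0.369%, in the opposite direction and also with no overlap.

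**Figure D1:**
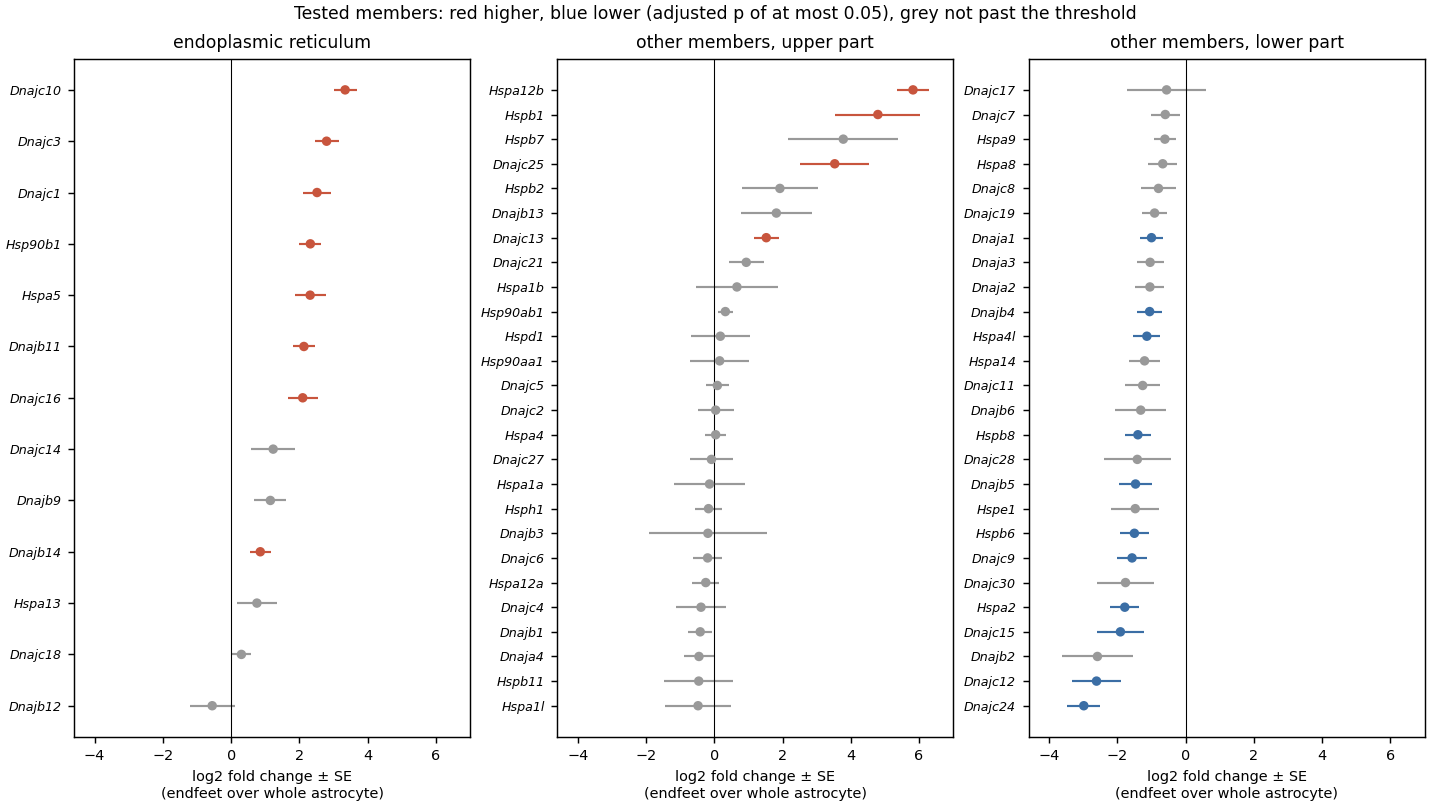
Log2 fold changes of the 65 tested members, endfeet TRAP over whole astrocyte TRAP (horizontal axis), as points with bars for the standard error, from edgeR over 3 and 6 libraries. Of the 13 endoplasmic reticulum members at the left 12 lie above 0, while 37 of the 52 other members, split into the higher-placed and the lower-placed ones, lie below 0.

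The endoplasmic reticulum members included the luminal HSP70 and HSP90. Hspa5 (BiP, chromosome 2, mm10 34771970 to 34777547), which binds proteins entering the lumen, had 144, 121 and 159.8 normalized CPM in the whole astrocyte libraries and 376 to 1591 (median 597, n = 6) in the endfeet libraries. All endfeet libraries lay above all whole astrocyte libraries, with endfeet library 1 far above the other five, and the log2 fold change was 2.31 ± 0.46 (standard error, adjusted p = 0.00165). Without endfeet library 1 it was 1.88 (adjusted p = 0.000229). Hsp90b1 (GRP94), the luminal HSP90 that folds integrins and Toll-like receptors, had 223, 198 and 216 against 802 to 1654 (median 847, n = 6), again without overlap, and a log2 fold change of 2.32 ± 0.33 (standard error, adjusted p = 0.000133). Of the bases of the Hsp90b1 transcript 21.6% lay in exons of other genes, one on the opposite strand and the others on the same strand, and reads there cannot be told apart. Hspa13, another HSP70-related protein of this compartment, had no call (log2 fold change 0.75 ± 0.60 (standard error, adjusted p = 0.349)).

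The promoters of these genes were inspected for the ER stress element, to which factors of the unfolded protein response bind, since its letters mark the classical targets of that response. The letters CCAAT and CCACG, with 9 bases of any kind between them, on either strand, were found in 39 of 32851 RefSeq promoters of GRCm38.p6 (0.119%), each reaching from 250 bases before to 50 bases after the transcript start. Promoters were given for 58 of the 72 members, and Hspa5, Hsp90b1 and Dnajc3 held the element, with a pair of copies in Hsp90b1. Dnajb11 held the related ER stress element II, the letters ATTGG and CCACG with 1 base of any kind between them, which was found in 12 promoters (0.0365%). The lines show the bases before the start of transcription, 5' to 3' on the strand of the gene, with the elements in capitals and with 20 bases after the start in Dnajb11. The windows are chr2:34771840-34772089 on the plus strand for Hspa5, chr10:86705445-86705694 on the minus strand for Hsp90b1, chr14:118937682-118937931 on the plus strand for Dnajc3 and chr16:22857595-22857864 on the plus strand for Dnajb11.
Hspa5: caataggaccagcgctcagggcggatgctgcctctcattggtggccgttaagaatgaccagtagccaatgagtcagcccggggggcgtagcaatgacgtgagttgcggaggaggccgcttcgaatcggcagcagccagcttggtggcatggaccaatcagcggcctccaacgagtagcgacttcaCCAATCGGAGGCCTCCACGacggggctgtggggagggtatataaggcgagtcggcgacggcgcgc
Hsp90b1: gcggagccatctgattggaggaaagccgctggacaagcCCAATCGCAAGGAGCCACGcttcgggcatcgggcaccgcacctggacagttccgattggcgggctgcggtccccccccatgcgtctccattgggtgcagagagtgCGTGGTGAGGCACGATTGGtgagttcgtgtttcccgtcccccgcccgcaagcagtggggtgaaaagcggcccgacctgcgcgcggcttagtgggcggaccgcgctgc
Dnajc3: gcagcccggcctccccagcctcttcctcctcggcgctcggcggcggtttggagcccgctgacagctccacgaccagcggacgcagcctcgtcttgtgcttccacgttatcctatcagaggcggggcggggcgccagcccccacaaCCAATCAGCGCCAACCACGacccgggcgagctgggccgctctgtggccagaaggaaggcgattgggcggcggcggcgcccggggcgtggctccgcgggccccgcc
Dnajb11: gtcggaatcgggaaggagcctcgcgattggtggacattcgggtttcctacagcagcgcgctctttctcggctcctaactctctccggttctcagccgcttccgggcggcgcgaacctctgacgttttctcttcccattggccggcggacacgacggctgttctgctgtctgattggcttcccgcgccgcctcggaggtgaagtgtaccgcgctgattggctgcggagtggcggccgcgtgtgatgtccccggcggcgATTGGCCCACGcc

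The 4 members printed were all higher in endfeet TRAP. Of the 18 tested genes whose promoter held the first element 9 were higher and 1 was lower, with Hspa5, Hsp90b1 and Dnajc3 among the higher ones. Calr, Canx, Creld2, Derl3, Pdia6 and Syvn1, from the list of endoplasmic reticulum genes below, held it too. Of the 8 tested genes with the second element 2 were higher and 1 was lower. Among all genes 20.7% were higher and 13.9% lower. A match of letters is a description and not a binding site, and other endoplasmic reticulum members, Dnajc10 and Dnajc1 among those that rose, were not among the matches.

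Of the 10 J-domain members of the endoplasmic reticulum 6 were higher and none was lower. Dnajc3 (P58IPK), a luminal co-chaperone of Hspa5, had 64.9, 53.4 and 59.3 normalized CPM in whole astrocyte TRAP and 247 to 599 (median 379, n = 6) in endfeet TRAP, a log2 fold change of 2.80 ± 0.35 (standard error, adjusted p = 5.59e-05). Dnajc10 (ERdj5), which reduces disulfide bonds of misfolded proteins, had 20.4, 15.97 and 20.04 against 115 to 242 (median 202, n = 6), and a log2 fold change of 3.34 ± 0.33 (standard error, adjusted p = 8.70e-06). Its lowest endfeet library lay several times above its highest whole astrocyte library. Dnajc1 (ERdj1), a membrane protein that binds ribosomes at the cytosolic side, had 9.02, 10.8 and 12.9 against 43.4 to 81.7 (median 59.3, n = 6), with a log2 fold change of 2.52 ± 0.40 (standard error, adjusted p = 0.00035). Dnajb11 (ERdj3), a soluble luminal co-chaperone, was higher by 2.13 ± 0.32 (standard error, adjusted p = 0.00023), and Dnajc16 by 2.10 ± 0.44 (standard error, adjusted p = 0.00244). For all of these the groups did not overlap.

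The remaining J-domain members of the endoplasmic reticulum were less clear. Dnajb14, a J-domain protein of the membrane, passed the threshold with a log2 fold change of 0.85 ± 0.31 (standard error, adjusted p = 0.0476), but endfeet library 3 lay among the whole astrocyte libraries. Without whole astrocyte library 1, 2 or 3 its adjusted p was 0.104, 0.175 and 0.158, and without endfeet library 1, 2, 4 or 5 it was 0.0592, 0.0635, 0.141 and 0.0899. Dnajb9 (ERdj4), a co-chaperone that represses the stress sensor IRE1 and is itself induced by it, had 18.3, 11.95 and 14.5 against 20.8 to 47.3 (median 32.2, n = 6). All its endfeet libraries were above all whole astrocyte libraries, but the log2 fold change of 1.15 ± 0.47 (standard error, adjusted p = 0.0745) passed the threshold only without endfeet library 6 among the left-out libraries (adjusted p = 0.0372). Log2 fold changes of the rest were 1.23 ± 0.65 (standard error, adjusted p = 0.158) for Dnajc14, which passed without endfeet library 1 (adjusted p = 0.0124), 0.30 ± 0.28 (standard error, adjusted p = 0.434) for Dnajc18 and -0.56 ± 0.66 (standard error, adjusted p = 0.548) for Dnajb12, the only member of the compartment below 0.

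Summed over the 13 members, the levels were 908, 790 and 894 CPM in whole astrocyte libraries 1 to 3 and 4784, 3782, 2628, 2992, 2523 and 2578 CPM in endfeet libraries 1 to 6. Every endfeet library was thus well above the whole astrocyte libraries. The summed markers of antibody-secreting cells, 11.6 to 19.3 CPM in whole astrocyte TRAP, were 979, 1422, 1025, 2073, 839 and 6078 CPM in the same endfeet libraries. The partner genes of endoplasmic reticulum folding and stress, described below, summed to between 828.97 and 924.81 CPM in whole astrocyte TRAP and to 5329, 3671, 2835, 3582, 3326 and 4562 CPM in endfeet libraries 1 to 6. Library 6, with the most of the antibody-secreting cell markers, was thus next to lowest in the sum of members and next to highest in that of partners. Derl3 is in both the marker list and the partner list. The part of these cells in the values was not tested. Without endfeet library 6 the log2 fold changes were 2.44 for Hspa5, 2.38 for Hsp90b1, 2.91 for Dnajc3 and 3.26 for Dnajc10, all past the threshold. The endothelial markers were high in every endfeet library and near 0 in whole astrocyte TRAP, and vessel cells cannot be told apart from endfeet as the source of these counts.

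**Figure D2:**
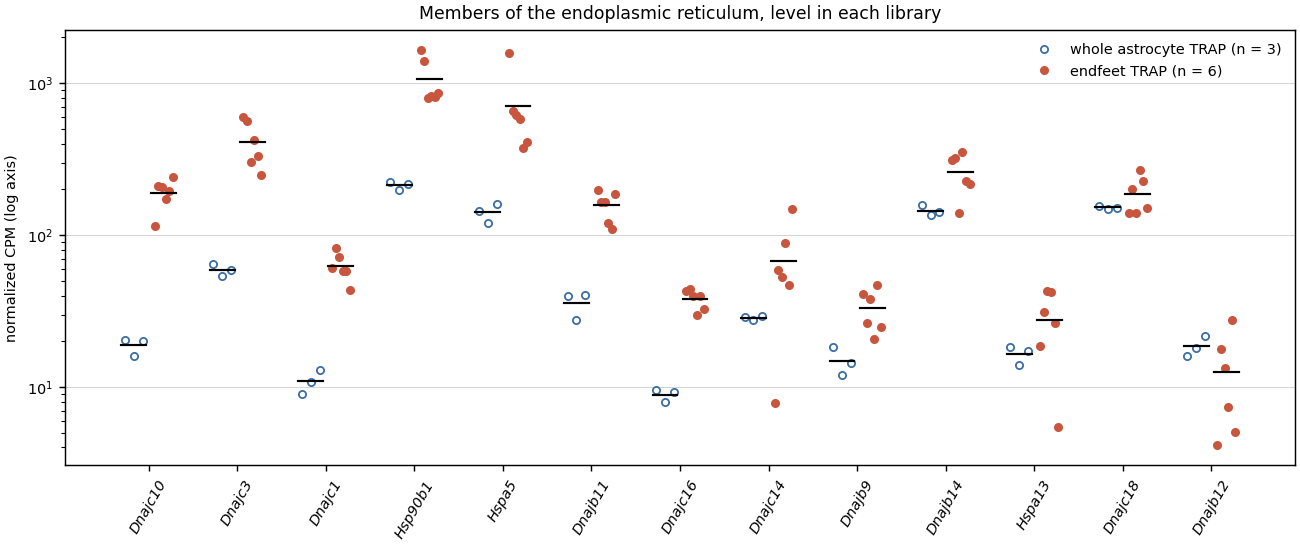
Normalized CPM (vertical log axis) of the 13 endoplasmic reticulum members in each library, with open blue circles for the 3 whole astrocyte libraries, filled red circles for the 6 endfeet libraries and a bar for each mean. From Dnajc10 to Dnajc16, the 7 genes at the left, the groups do not overlap.

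HSP90 of the cytosol gave no call. Hsp90ab1, the constitutive cytosolic HSP90, had 556, 643 and 568.1 normalized CPM in whole astrocyte TRAP and 577 to 925 (median 724, n = 6) in endfeet TRAP, overlapping groups with a log2 fold change of 0.32 ± 0.23 (standard error, adjusted p = 0.295). Hsp90aa1, its stress-inducible relative, had 1.57, 2.62 and 2.06 against 0.736 to 4.31 (median 2.003, n = 6) and a log2 fold change of 0.15 ± 0.87 (standard error, adjusted p = 0.907), whose sign turned negative without endfeet library 1 or 4. Per kilobase of transcript, as RPKM, Hsp90ab1 had the highest level of all members in whole astrocyte TRAP, 234 ± 18.6 RPKM (SD, n = 3), and Hsp90b1 the highest in endfeet TRAP, 375 ± 132 RPKM (SD, n = 6), against 292 ± 48.2 RPKM for Hsp90ab1, values that lie within a standard deviation of each other. Of the 11 members with at least 50 RPKM in whole astrocyte TRAP and the 7 with as much in endfeet TRAP, 5 were shared.

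Of the cytosolic HSP70 genes Hspa2 alone was called. Hspa8 (HSC70), the constitutive form, had 74.5, 80.2 and 66.2 normalized CPM against 29.2 to 81.5 (median 32.7, n = 6), and its log2 fold change of -0.67 ± 0.42 (standard error, adjusted p = 0.231) did not pass the threshold. It was lower with the library number series as a covariate, within 1 series and with limma voom (-1.22, -1.35 and -0.78, adjusted p of 0.0493, 0.0062 and 0.0384). The Hspa8 transcript with the most counts is annotated as one that retains an intron. Its counts can include reads shared with other Hspa8 transcripts, so these levels are not those of that form alone. The stress-inducible pair Hspa1a and Hspa1b, neighbours on chromosome 17 that share most of their sequence, had low levels. For Hspa1a they were 4.43, 4.31 and 3.77 against 0 to 10.1 (median 3.34, n = 6) (log2 fold change -0.14 ± 1.04 (standard error, adjusted p = 0.93)), and for Hspa1b 1.19, 0.8196 and 1.67 against 0 to 6.75 (median 1.31, n = 6) (log2 fold change 0.66 ± 1.19 (standard error, adjusted p = 0.7)). Both had 0 counts in endfeet library 6, the shallowest. That allows up to 1.29 CPM there before TMM scaling, and for neither gene was a difference detectable. Without endfeet library 1 the value of Hspa1b turned to -0.25. Hspa2, an HSP70 best known from the testis, was lower, with 246, 218 and 216 against 18.3 to 123 (median 62.7, n = 6), no overlap, and a log2 fold change of -1.79 ± 0.42 (standard error, adjusted p = 0.0052). Hspa14 (log2 fold change -1.21 ± 0.47 (standard error, adjusted p = 0.0607)) and Hspa1l (-0.48 ± 0.96 (standard error, adjusted p = 0.735)) did not pass the threshold, and 71.9% of the exon bases of Hspa1l lay in another gene.

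The pair of HSPA12 genes, distant relatives of HSP70, differed in their calls, a difference that was not tested. Hspa12b, known from endothelial cells, had 1.43, 1.67 and 1.64 normalized CPM in whole astrocyte TRAP and 62.8 to 120.4 (median 83.9, n = 6) in endfeet TRAP. With a log2 fold change of 5.82 ± 0.47 (standard error, adjusted p = 1.45e-06), it had the largest change of the tested members, and no libraries overlapped. Hspa12a, known from brain, had 113, 110.4 and 112 against 25.5 to 116 (median 109, n = 6), with endfeet library 1 far below the others, and a log2 fold change of -0.25 ± 0.40 (standard error, adjusted p = 0.655). The endothelial markers given above rose together with Hspa12b, and their part in its change was not tested.

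The HSP110 genes, exchange factors of cytosolic HSP70, gave no higher call. Hsph1 had 372, 367 and 337 against 108 to 613 (median 313, n = 6), with overlap and a log2 fold change of -0.17 ± 0.40 (standard error, adjusted p = 0.774) that turned to 0.011 without endfeet library 6. Hspa4 had a log2 fold change of 0.038 ± 0.30 (standard error, adjusted p = 0.936), negative without whole astrocyte library 3 or endfeet library 4, 5 or 6. Hspa4l was lower, with a log2 fold change of -1.14 ± 0.39 (standard error, adjusted p = 0.0391), a call lost without any 1 of the whole astrocyte libraries or without endfeet library 2 (adjusted p of 0.114, 0.14, 0.101 and 0.0873).

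Mitochondrial chaperones gave 1 call among 8 members. Hspa9 (mortalin), the HSP70 of the matrix, had 175, 174 and 165 normalized CPM in whole astrocyte TRAP and 60.7 to 177 (median 106, n = 6) in endfeet TRAP, with a log2 fold change of -0.61 ± 0.32 (standard error, adjusted p = 0.158), past the threshold without endfeet library 1 (adjusted p = 0.0468). The chaperonin Hspd1 (HSP60) had 1.27, 1.67 and 1.73 against 0.643 to 3.19 (median 1.65, n = 6) (0.18 ± 0.87 (standard error, adjusted p = 0.895)), a value that turned to -0.04 without endfeet library 6, and its lid Hspe1 (HSP10) had 17.4, 21.7 and 18.6 against 0.937 to 11.2 (median 8.18, n = 6) (-1.48 ± 0.71 (standard error, adjusted p = 0.123)). For Hspe1 every endfeet library lay below every whole astrocyte library, yet the test did not pass. Dnajc15, a J-domain protein of the import motor, had 42.2, 43.8 and 43.6 against 2.28 to 26.00 (median 7.65, n = 6) and was lower, with a log2 fold change of -1.91 ± 0.70 (standard error, adjusted p = 0.049), on a transcript annotated as a target of nonsense-mediated decay. That call was lost without any 1 of the whole astrocyte libraries (adjusted p of 0.135, 0.131 and 0.13) and without endfeet library 3 (0.101) or 4 (0.061). Dnaja3, Dnajc11, Dnajc19 and Dnajc30 lay between -1.76 and -0.91 and did not pass the threshold. In 6 of the 8 mitochondrial members, these included, every endfeet library lay below every whole astrocyte library (23.8% of all genes).

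Small heat shock proteins moved in both directions. Hspb6 (HSP20) had 66.1, 56.7 and 64.2 normalized CPM in whole astrocyte TRAP and 10.95 to 32.6 (median 21.6, n = 6) in endfeet TRAP, without overlap, and was lower, with a log2 fold change of -1.50 ± 0.42 (standard error, adjusted p = 0.0134). Hspb8 (HSP22), which works with Bag3 in selective autophagy, had 219.6, 242 and 225 against 29.7 to 136 (median 83.5, n = 6) and was lower, with a log2 fold change of -1.40 ± 0.38 (standard error, adjusted p = 0.0116). Their relative Cryab, which the symbol rule does not take in, was lower too (log2 fold change -1.87 ± 0.26, adjusted p = 0.000118). Without 1 of the whole astrocyte libraries Hspb6 had adjusted p of 0.0781, 0.0508 and 0.0651, while Hspb8 stayed past the threshold in each case.

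Hspb1 (HSP27) was called higher on few counts. It had 0, 2 and 1 counts in the whole astrocyte libraries and 4, 7, 23, 7, 13 and 1 in the endfeet libraries, or 0, 0.0529 and 0.0219 against 0.456 to 1.51 (median 0.777, n = 6) normalized CPM. The count of endfeet library 6 and those of whole astrocyte TRAP lay under the floor of 3. The ratio of the summed counts, scaled by depth, was 38.4 (95% exact interval 12.5 to 192, counting error only), and the fitted log2 fold change was 4.79 ± 1.24 (standard error, adjusted p = 0.00946). The call was lost without whole astrocyte library 1 (adjusted p = 0.0821) or 3 (adjusted p = 0.0898), and without library 2 the value was 5.52. Hspb2 and Hspb7, known from muscle, did not pass the threshold at 1.92 ± 1.12 (standard error, adjusted p = 0.201) and 3.78 ± 1.61 (standard error, adjusted p = 0.0856), and both had 0 counts in endfeet library 6. Hspb11, a protein of the ciliary transport complex rather than a typical small heat shock protein, had -0.46 ± 1.005 (standard error, adjusted p = 0.757).

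The 8 J-domain members assigned to the cytosolic co-chaperones of classes A and B, a choice that left Dnajb3, Dnajb7, Dnajb8 and Dnajb13 to the other members, all had negative log2 fold changes, and 3 were called lower. Dnaja1, a co-chaperone of Hspa8, had 93.6, 105 and 81.4 normalized CPM against 30.9 to 73.02 (median 44.7, n = 6), with no overlap, and was lower, with a log2 fold change of -1.003 ± 0.33 (standard error, adjusted p = 0.0337). Dnajb4 was lower, with a log2 fold change of -1.06 ± 0.37 (standard error, adjusted p = 0.0418) and so was Dnajb5 (-1.47 ± 0.49 (standard error, adjusted p = 0.0341)), counted on a transcript annotated with a retained intron. Dnajb1 (HSP40), the stress-inducible J-domain protein, had 79.3, 85.9 and 78.1 against 30.1 to 92.8 (median 62.3, n = 6) and a log2 fold change of -0.41 ± 0.35 (standard error, adjusted p = 0.387). Dnajb6, which keeps polyglutamine proteins soluble, had 5.91, 6.72 and 5.06 against 1.44 to 3.903 (median 1.96, n = 6) (-1.32 ± 0.76 (standard error, adjusted p = 0.195)), with all endfeet libraries below. Dnaja2, Dnaja4 and Dnajb2 had -1.05 ± 0.42 (standard error, adjusted p = 0.0713), -0.45 ± 0.43 (standard error, adjusted p = 0.444) and -2.59 ± 1.04 (standard error, adjusted p = 0.071), and 52.6% of the exon bases of Dnaja4 lay in another gene. The calls of Dnaja1, Dnajb4 and Dnajb5 were each lost without any 1 of the whole astrocyte libraries, with adjusted p between 0.0815 and 0.158. Without endfeet library 2 they had 0.0637, 0.0831 and 0.066, and Dnajb4 was also lost without endfeet library 1, 3 or 6 (0.0567, 0.0817 and 0.0556).

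Of the J-domain proteins of vesicles and endosomes Dnajc13 alone was called. Dnajc5 (cysteine string protein), which guards synaptic vesicle fusion, had 281, 278 and 293 normalized CPM in whole astrocyte TRAP and 218 to 615 (median 245, n = 6) in endfeet TRAP, with endfeet library 6 alone above the rest, and a log2 fold change of 0.087 ± 0.34 (standard error, adjusted p = 0.864) that turned to -0.24 without that library. Dnajc6 (auxilin), which uncoats clathrin vesicles with Hspa8, had 142, 139 and 135 against 49.7 to 211 (median 112, n = 6) (-0.20 ± 0.41 (standard error, adjusted p = 0.745)). Dnajc13, a protein of endosomal sorting, was higher by 1.52 ± 0.37 (standard error, adjusted p = 0.00679), with 27.5, 26.7 and 27.01 against 59.1 to 130.1 (median 66.4, n = 6) and no overlap.

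The other J-domain members gave the strongest decreases. Dnajc24, an enzyme of diphthamide synthesis on translation elongation factor 2, had 67.2, 70.9 and 73.3 normalized CPM against 4.71 to 15.8 (median 7.85, n = 6) and was lower, with a log2 fold change of -2.99 ± 0.49 (standard error, adjusted p = 0.000421). Dnajc12, a co-chaperone of aromatic amino acid hydroxylases, had 30.5, 31.5 and 27.2 against 0.456 to 9.299 (median 4.56, n = 6) and was lower, with a log2 fold change of -2.61 ± 0.73 (standard error, adjusted p = 0.0142). Dnajc9, a histone chaperone, had 64.3, 60.2 and 54.8 against 7.72 to 34.2 (median 19.3, n = 6) and was lower, with a log2 fold change of -1.57 ± 0.45 (standard error, adjusted p = 0.0158). In all of these the groups did not overlap. The calls of Dnajc12 and Dnajc9 were lost without whole astrocyte library 1 (adjusted p of 0.0643 and 0.0887), 2 (0.0623 and 0.0681) or 3 (0.0502 and 0.0558). Dnajc25 went the other way, with 1.46, 2.12 and 3.22 against 0.913 to 62.4 (median 19.99, n = 6) and a log2 fold change of 3.53 ± 1.01 (standard error, adjusted p = 0.0161). Endfeet library 6 lay below the whole astrocyte libraries there, and the call was lost without whole astrocyte library 1 or 2 (adjusted p of 0.0765 and 0.0716). In the ribosome-associated and nuclear members Dnajc2, counted on a transcript with a retained intron, and Dnajc21, and in the splicing-linked Dnajc8 and Dnajc17, no call was made, with log2 fold changes between -0.80 and 0.93. Dnajb3, Dnajb13, Dnajc4, Dnajc7, Dnajc27 and Dnajc28 did not pass it either, with values between -1.42 and 1.82.

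**Figure D3:**
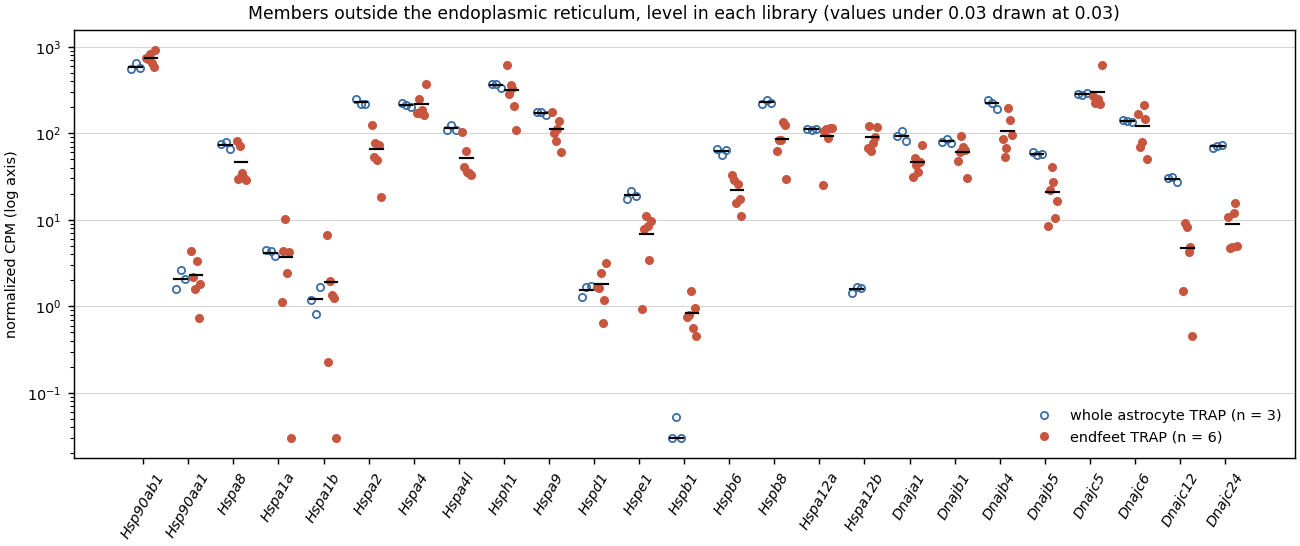
Normalized CPM (vertical log axis, values under 0.03 drawn at 0.03) of 25 members outside the endoplasmic reticulum in each library, with open blue circles for whole astrocyte TRAP, filled red circles for endfeet TRAP and a bar for each mean. Hspa12b lies higher in every endfeet library, while Hspa2, Hspb6, Hspb8, Dnajc12 and Dnajc24 lie lower in every one.

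The number of lower members depended on each whole astrocyte library. Without any 1 of them 3 members stayed lower in place of 11, and in each case these were Dnajc24, Hspa2 and Hspb8, while 9, 10 and 10 were higher in place of 12 and 7 of the 8 endoplasmic reticulum calls stayed. Among all genes the lower ones were then 7.89, 8.06 and 8.19% and the higher ones 13.2, 12.6 and 13.1%. DESeq2 called 14 members higher and 16 lower, against 25.0 and 15.7% of all genes, and limma voom 14 and 26, against 27.2 and 31.1%. The library names carry numbers of 2 series, whose meaning is not given, and whole astrocyte libraries and endfeet libraries 4 to 6 share one series. Within that series 12 members were higher and 13 lower of 64 tested (19.5 and 19.7% of all genes), and Hspa5 had a log2 fold change of 1.56 (adjusted p = 0.00261). Hspb8, Dnajb4, Dnajc15 and Dnajc25 did not pass there, with log2 fold changes of -1.37, -0.75, -1.94 and 2.34 (adjusted p of 0.0645, 0.0789, 0.0751 and 0.105). In turn Hspa8, Dnajb2, Dnajb3, Dnajc7 and Dnajc17 were lower there (adjusted p of 0.0062, 0.0273, 0.00628, 0.0334 and 0.0201) and Dnajc14 was higher (adjusted p = 0.0232). Dnajb3 had 0 counts in all 3 endfeet libraries of that series. The other series held endfeet libraries only.

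The same promoters were searched for the heat shock element. The letters GAA, TTC and GAA, with 2 bases of any kind between each, on either strand, were found in 198 of the 32851 promoters (0.603%), and in 4 members, Dnajb6, Hspd1, Hspe1 and Hsph1, of which none passed the threshold (0 at an unadjusted p under 0.05 and 0 by DESeq2, 1 by limma voom, Hspe1). Of the 61 tested genes with these letters 12 were higher and 5 lower, where 20.7% and 13.9% of all genes were. A match of letters is again only a description, and Hspa1a, Hspa1b, Hsp90aa1, Dnajb1 and Hspb1 were not among the matches. The calls of the 4 matched members are thus no result about the targets of heat shock factors. The promoter of Hspd1, chr1:55087933-55088182 on the minus strand, is shown because it holds overlapping copies, in capitals, in the stretch between the starts of Hspd1 and Hspe1, which run in opposite directions.
Hspd1: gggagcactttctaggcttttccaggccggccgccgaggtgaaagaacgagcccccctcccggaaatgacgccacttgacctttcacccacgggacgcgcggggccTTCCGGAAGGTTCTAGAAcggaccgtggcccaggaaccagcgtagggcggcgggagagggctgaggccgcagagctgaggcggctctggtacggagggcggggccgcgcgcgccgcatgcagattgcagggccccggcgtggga

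Genes that work with the chaperones were counted by list in the same way. Of 26 genes of endoplasmic reticulum folding and stress 18 were higher and 1 lower, with a median log2 fold change of 2.40. Xbp1 (2.59 ± 0.29, adjusted p = 2.10e-05), the factor spliced by IRE1, Canx (2.38 ± 0.28, adjusted p = 3.40e-05), a lectin chaperone, P4hb (2.87 ± 0.35, adjusted p = 3.88e-05), a disulfide isomerase, and Ern1 (4.16 ± 0.53, adjusted p = 6.35e-05), which is IRE1 itself, had the smallest adjusted p-values. Atf4, the factor translated when initiation is blocked, was the lower one (-1.12 ± 0.38, adjusted p = 0.0356), and Ddit3 (CHOP) did not pass the threshold (-0.43 ± 0.65, adjusted p = 0.64). Of the 11 nucleotide exchange factors 2 were higher and 1 lower, and the 2 higher ones, Hyou1 (3.29 ± 0.66, adjusted p = 0.00199) and Sil1 (2.51 ± 0.70, adjusted p = 0.0146), act on Hspa5, while the lower one, Grpel1 (-2.35 ± 0.53, adjusted p = 0.00408), acts on mitochondrial Hspa9.

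Of the 20 co-chaperones of HSP90 and HSP70 in the cytosol 1 was higher and 9 were lower, with a median of -1.49. Cdc37l1 (-2.03 ± 0.28, adjusted p = 0.000121), St13 (-1.65 ± 0.23, adjusted p = 0.000131), Ppp5c (-2.24 ± 0.41, adjusted p = 0.000949) and Ahsa1 (-2.23 ± 0.49, adjusted p = 0.00355) had the smallest adjusted p-values, and Unc45b, the myosin chaperone of muscle, was the one higher (4.94 ± 1.35, adjusted p = 0.0127). Of 14 tested genes of the cytosolic chaperonin and prefoldin 3 were lower, all of prefoldin, namely Vbp1 (-2.09 ± 0.40, adjusted p = 0.00136), Pfdn6 (-2.74 ± 0.73, adjusted p = 0.0108) and Pfdn1 (-1.42 ± 0.51, adjusted p = 0.0467), and none was higher (1 at an unadjusted p under 0.05 and 1 by limma voom, 0 by DESeq2). Among the mitochondrial partners 1 of 10 was lower, the protease Clpp (-2.37 ± 0.79, adjusted p = 0.0342). Of 4 tested heat shock factor genes Hsbp1, which binds the factors, was lower (-1.98 ± 0.40, adjusted p = 0.0021), and Hsf1 did not pass the threshold (-0.25 ± 0.38, adjusted p = 0.637). Over all partner lists 22 of 89 tested genes (24.7%) were higher and 17 (19.1%) lower, against 20.7% and 13.9% of all genes. These shares were near the background, and the count is no result about the partner genes as a whole. Outside the endoplasmic reticulum 2 of 61 (3.28%) were higher and 16 (26.2%) lower. Without any 1 whole astrocyte library the lower ones of all lists fell to 12, 10 and 10. The lower ones among all genes were then 7.89, 8.06 and 8.19%.

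**Figure D4:**
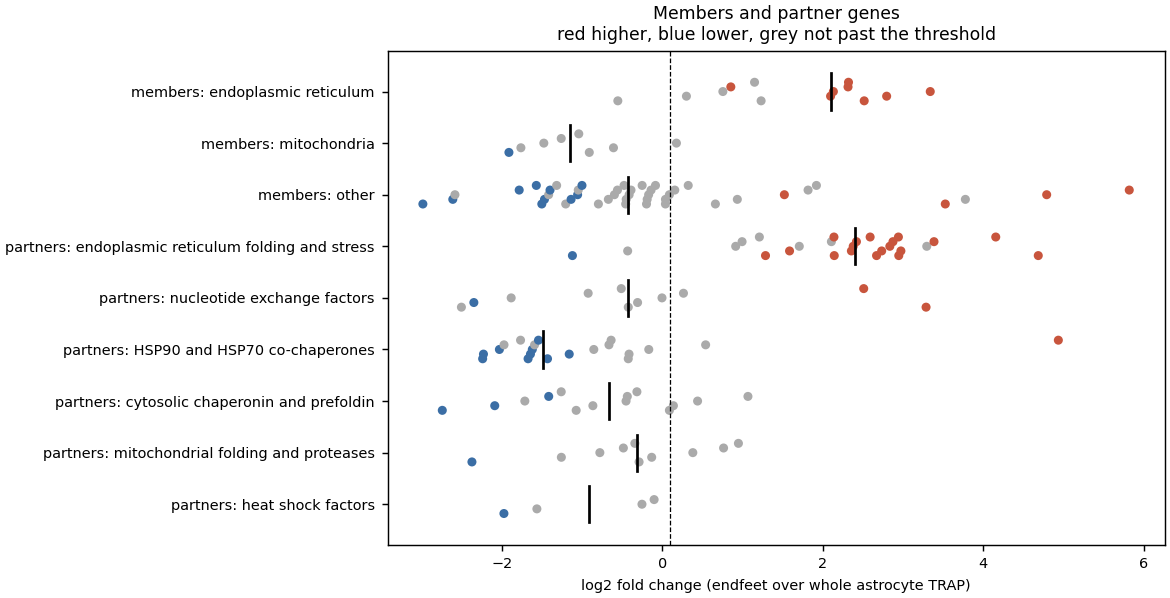
Log2 fold change (horizontal axis) of each tested member, by compartment, and of each tested partner gene of the lists named at the left, with a black bar at each list's median and a dashed line at the median of all genes tested, 0.10. The endoplasmic reticulum members and partners have medians of 2.10 and 2.40, while the other lists plotted have medians between -1.49 and -0.32.

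Sequence shared with other loci limited what was counted. The authors removed reads that aligned more than once, so reads from a stretch that a pseudogene or a near-identical copy shares were not counted. Only annotated transcripts were searched for shared sequence, so copies elsewhere in the genome were missed and a share can be too low. Of the 50-base windows of each transcript, those with a match of at most 2 mismatches at another locus were counted. Their share was 75.7% in Hspa1b and 71.5% in Hspa1a, which share sequence with each other, 74.7% in Hspb1, 70.5% in Hspd1, with 16 pseudogenes, 70.4% in Dnajc17, 68.2% in Hsp90aa1, with 6 pseudogenes, 64.3% in Hspe1 and 55.1% in Hspa8, with 15 pseudogenes. These are the 8 members over 50%. The mean levels counted in whole astrocyte TRAP, 0.63 ± 0.16 RPKM for Hsp90aa1 and 0.64 ± 0.10 RPKM for Hspd1 (SD, n = 3), can come only from the windows that are left, and the order of members with unlike shares, that of Hsp90ab1 and Hsp90b1 included, rests on the windows left to each. The part of the lost windows in these low levels was not tested. With these 8 members left out, 11 members were higher and 11 lower of 57. In Dnajb6 the share was 43.7%, in Hsp90ab1 35.7% and in Hspa9 31.0%, while Hspa5, Hsp90b1, Dnajc3, Dnajc10 and Hspa12b had 0%.

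**Figure D5:**
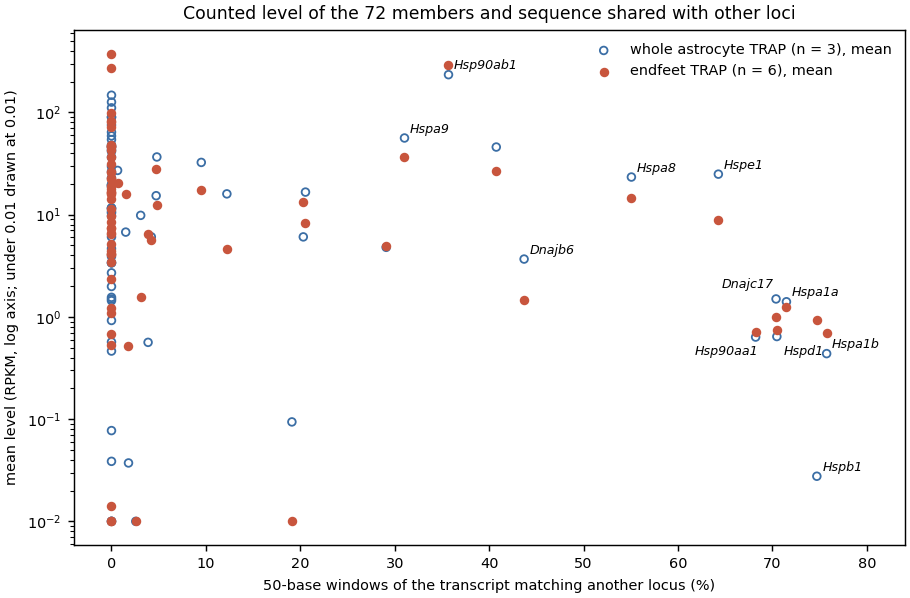
Mean level of each of the 72 members (RPKM, vertical log axis) against the share of its 50-base windows that match another locus (horizontal axis), open blue circles for whole astrocyte TRAP and filled red circles for endfeet TRAP. The 8 members beyond 50% include Hspa8 and Hspe1 at over 20 RPKM in whole astrocyte TRAP and 6 others at under 2 RPKM.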

How the data were processed

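Ribosome-bound mRNA was sequenced from 3 whole astrocyte TRAP and 6 endfeet TRAP libraries of mice of 2 months. According to the study's methods and the submitters' processing notes (bcl2fastq 1.8.4, Bowtie, HTSeq 0.5.3, build mm10), RNA was amplified, short or low-quality reads were removed, reads were aligned, those that aligned more than once were discarded, and overlaps with Ensembl transcripts were counted. The authors deposited raw counts per transcript for each library, neither normalized nor filtered, and nothing was pooled. Of 75466 transcripts 73164 (96.9%) were matched by identifier to GENCODE M21 of the same build, in 22092 genes, and 2302 were left out. A read was counted on every transcript it overlapped, so 1 transcript stood for each gene, the one whose CPM had the highest sum. The counting is not stated to use strand.

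Counts were tested over all 9 libraries with edgeR 4.0.16 in R 4.3.3 (TMM, filterByExpr, glmQLFit, glmQLFTest), with Benjamini-Hochberg adjustment over all genes tested and a threshold of 0.05. The standard error was the absolute log2 fold change over the square root of F. RPKM was normalized CPM per kilobase of that transcript. Gene totals of 2319495 to 43521208 counts set the floors given with the results, and intervals and floors cover counting error only. Shared windows of 50 bases with at most 2 mismatches were found with BLAST 2.17.0, and motifs were searched in RefSeq promoters (GRCm38.p6). Tables were handled in Python 3.11.15 with pandas 2.3.3, numpy 2.4.6 and scipy 1.17.1. The fits were also run on simulated counts with the same dispersion in both groups. That run cannot show how the unlike spread of the real groups affects the calls.

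Alternatives were DESeq2 1.42.0, its size factors in edgeR, no filter, at least 10 counts in every library, a minimum log2 fold change of 1 in size, the replicate number as a block, the library number series as a covariate or alone, summed transcripts, limma 3.58.1 (voom, weights by group) and each library left out. Leaving out members over 50% shared, and the count of endoplasmic reticulum members, were added after seeing the data. The members, lists and roles were chosen with earlier results of these data known. Values in every library are given for members that carry each role and, in each direction, for the 6 called members of largest change. Dnajc13 was added to these after its values were seen. Other members are named with log2 fold changes, and partner genes by smallest adjusted p, up to 4 a list. Atf4, Ddit3, Unc45b, Hsf1, Hsbp1 and Cryab were named for their list or role. The result of 1 partner list is not reported here.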

Additional observations from a re-analysis of the deposited data

Results flagged for a closer look

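In the 65 tested members the highest or lowest of the 6 endfeet libraries stood apart from the rest, by Dixon's ratio, in 10 members. Chance gives about 1 in 20 groups of normally distributed values. The ratio was taken without logs, and some of these members had libraries at 0, so that rate need not hold here. Levels are normalized CPM. Endfeet library 1 was highest for Hspa5 at 1591 (others 376 to 657), Dnajc7 at 162 (others 33.3 to 77.7), Dnajb3 at 12.4 (others 0 to 2.56) and Hspa1b at 6.75 (others 0 to 1.97), and lowest for Hspa12a at 25.5 (others 88.7 to 116). Endfeet library 6, the shallowest, was highest for Dnajc5 at 615 (others 218 to 266), Dnaja2 at 494 (others 117 to 241), Dnajc13 at 130.1 (others 59.1 to 83.97) and Dnajc28 at 47.9 (others 0 to 13.8). Endfeet library 2 was highest for Dnajb2 at 2.30 (others 0 to 0.804). Of these members Hspa5 and Dnajc13 were called higher, and both calls held without the library in question.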

How the results depend on the processing

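Of the 23 called members 11 were called under every alternative, 7 of them in the endoplasmic reticulum, and none of the 23 changed sign. The count of lower members, 11, was 7 with the library number series as a covariate and 26 with limma voom, and that of lower partner genes, 17, was 35 with limma voom. With 1 library left out, members higher ranged from 9 to 13 and lower from 3 to 16, endoplasmic reticulum members higher from 7 to 9, and partner genes higher from 16 to 25 and lower from 10 to 25. The share of gene counts held by all members, on average 0.547% of whole astrocyte and 0.634% of endfeet libraries, was 0.602% and 0.728% once the 10 most counted genes of every library were left out of the total. Of the 42 members not past the threshold 20 passed it under some alternative. Between them, without 1 library, Dnaja2, Dnaja3, Dnajb2, Dnajb9, Dnajc7, Dnajc8, Dnajc11, Dnajc14, Dnajc19, Dnajc21, Hspa9, Hspa14 and Hspb7 passed. With counts summed over transcripts, RPKM moved by more than 1 SD in 26 of 46 comparisons. Such sums add a read again for each transcript it overlaps. They rise by construction in genes with several transcripts, so this count says nothing about how stable the levels are.

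Same-numbered libraries of the groups were not seen to deviate together (correlations of -0.036 to 0.038 in 3 pairs, against -0.055 to 0.047 in 15 others). The whole astrocyte libraries differed little from each other (common dispersion 0.0135, against 0.341 among endfeet libraries), so these correlations cannot exclude a pairing. With the replicate number as a block 11 members were higher and 10 lower, 21 partner genes higher and 16 lower, and 7 endoplasmic reticulum members higher.

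Members that changed sign had small log2 fold changes, none past the threshold in the main test. Dnajc2 (0.038) was -0.050 without a filter, -0.12 with at least 10 counts, -0.13 with the series covariate, -0.26 in the series shared with whole astrocyte TRAP and -0.17 with limma voom. Dnajc5 (0.087) was -0.0059 without a filter, -0.094 with at least 10 counts, -0.22 with the block, -0.0066 with summed transcripts and -0.14 with limma voom. Hspa4 (0.038) was, in that order, -0.052, -0.13, -0.13, -0.093 and -0.12. With the series covariate, in that series alone and with limma voom, Hsp90aa1 (0.15) was -0.088, -0.21 and -0.021, and Hspa1b (0.66) was -0.36, -0.45 and -0.066. Hspd1 (0.18) was -0.15 in that series and Hsph1 (-0.17) was 0.15 with the block. With 1 library left out the values ranged from -2.31 to 0.14 for Dnajb3, -0.10 to 0.097 for Dnajc2, -0.39 to 0.15 for Dnajc27, -0.24 to 0.23 for Dnajc5, -0.13 to 0.34 for Hsp90aa1, -0.71 to 0.11 for Hspa1a, -0.25 to 0.96 for Hspa1b, -0.17 to 0.12 for Hspa4, -0.040 to 0.27 for Hspd1 and -0.47 to 0.011 for Hsph1. The cause of these changes was not tested. Depth limits the endfeet values of members near the floor, Hspb1, Hspb2, Hspb7, Hspa1a and Hspa1b among them. That floor was up to 1.29 CPM in library 6, before TMM scaling.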
